A study of Mus musculus with 8 samples.

Results

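The genes described here are the expressed Zfp genes of mouse bone marrow cultures that the study names mesenchymal stem cells (MSCs). These genes are named for the zinc fingers most of their proteins carry. They were chosen by their level in the deposited gene table: protein-coding genes named Zfp and a number, without Zfp36, were selected on a mean of at least 200 counts over the 4 RNA-seq libraries. Of 335 such genes, 182 passed and 153 did not, among 47643 named genes in all. The count limit used the mean over both genotypes and not the difference between them. The gene family itself was chosen with earlier results of these data known. Just below the limit were Zfp1, Zfp213 and Zfp677 with mean counts of 196, 199 and 199, and just above it Zfp423, Zfp53 and Zfp606 with 202, 206 and 206. RNA-seq compared 2 libraries labelled wild type (WT) with 2 labelled Prx1-cre;Mettl3fl/fl (cKO), and a separate m6A MeRIP-seq experiment on wild type MSCs used 2 immunoprecipitates and 2 inputs. All samples carry the strain label C57BL/6, and every culture had spent 2 days in osteogenic medium with 100 nM dexamethasone, 50 μg/ml ascorbic acid and 5 mM β-glycerophosphate. In the study's own naming the wild type RNA-seq controls are Mettl3fl/fl littermates, so the floxed allele would be shared by both groups and Cre carried by cKO alone. The age and sex of these mice and the number pooled per library are not given in the sources used here, so the p-values measure the spread between these libraries, which may be technical.

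Most Zfp proteins carry C2H2 zinc fingers, short loops in which a pair of cysteines and a pair of histidines hold a zinc ion, and a row of fingers reads DNA bases one after another. Many also begin with a Krüppel-associated box (KRAB), which recruits the corepressor Trim28 and with it the histone methyltransferase Setdb1, a route best known for silencing retroelements. Others, such as Zfp521 and Zfp423, act in the choice between bone and fat lineages. N6-methyladenosine (m6A) is laid down on mRNA by Mettl3 with Mettl14, often at the bases GGAC, in long internal exons and around stop codons, and it can shorten the life of a transcript. KRAB genes usually encode all their fingers in one long last exon. Prx1-Cre is active in limb mesenchyme and its descendants and not in blood cells.

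The libraries held 23978099 to 34106693 counts. The targeted gene, Mettl3, stood at 17.6 and 16.9 counts per 1000000 counts of the library (CPM) in the WT libraries and at 17.5 and 16.3 CPM in those labelled cKO, with a log2 difference of -0.03 (SE 0.09, edgeR adjusted p = 0.824). Cre removes exons 2 and 3, and a total over the gene counts the exons that remain, so this value is no check of the deletion; cKO below always means the label. None of the 7 genes of the m6A machinery passed the test. MSC markers summed to 2886 to 2963 CPM in WT and 2369 to 2397 CPM in cKO, with 4 of 10 higher and 5 lower in cKO, and the marrow stromal marker Lepr stayed at 0.596 to 1.24 CPM in every library. Col1a1 made up most of that sum, at 1896.2 and 1920.5 CPM in WT and 1224.5 and 1258.7 CPM in cKO, so the sum does not stand for the other markers. Among the 4 rises, Thy1 went from 3.93 and 1.91 CPM to 74.7 and 69.4 CPM. Prrx1 went from 145.97 and 133.55 CPM to 288.1 and 289.1 CPM. Macrophage markers were abundant, at 14019 and 18854 CPM in WT and 18760 and 18864 CPM in cKO, with 1 of 6 (Ptprc) higher and none lower. Chondrocyte markers summed to 3573 and 3611 CPM in WT and 84.8 and 84.2 CPM in cKO (5 of 6 lower). Immediate early genes summed to 720.0 and 798.5 against 123.7 and 124.2 CPM (5 of 6 lower), and proliferation markers to 457.5 and 462.0 against 287.5 and 287.4 CPM (6 of 6 lower). Endothelial markers summed to 2.48 to 3.34 CPM in WT and 9.48 to 10.9 CPM in cKO (Kdr higher, Pecam1 at most 0.266 CPM), neutrophil markers to 2.75 to 3.54 and 0.377 to 0.825 CPM (S100a8 lower), and erythroid and lymphoid markers to at most 0.157 CPM, with no member called. Beside these calls stand 13.7% called higher and 16.8% called lower in cKO over all genes tested. The part of the marker differences in the results below was not tested. In bulk RNA fewer cells of a type cannot be told from less RNA per cell. The WT libraries also differed more from each other than the cKO libraries did: the median absolute log2 difference over the Zfp genes was 0.12 between the WT libraries and 0.07 between the cKO libraries.

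Zfp transcripts were of modest abundance. Per length, in the deposited normalised value that has the same sum in every library (TPM), the genes ranged from 1.37 to 64.2 TPM with a median of 8.39 TPM, against a median of 24.96 TPM for the 9962 other protein-coding genes with a mean of at least 200 counts. By the mean over the 4 libraries the top gene was Zfp106, a protein of nuclear speckles that binds RNA repeats, with 59.2 and 51.6 TPM in WT and 70.6 and 75.3 TPM in cKO. Zfp207, a spindle assembly factor also called BuGZ, followed with 62.6 and 64.8 TPM in WT and 63.9 and 59.2 TPM in cKO. Zfp91, a ubiquitin ligase of NF-κB signalling, had 39.0 and 41.6 TPM in WT and 52.0 and 50.6 TPM in cKO. The 4 values of Zfp207 lay inside the range of Zfp106, so these neighbours cannot be ranked, while Zfp91 was below both within every library. Next came Zfp384 at 40.4 and 40.4 TPM in WT and 44.2 and 48.6 TPM in cKO. Zfp384 is better known in bone as Nmp4 or CIZ, a nuclear matrix protein that restrains the anabolic response to parathyroid hormone. Zfp703 reached 52.5 and 53.0 TPM in WT and 32.8 and 34.03 TPM in cKO, so it stood above Zfp384 and Zfp91 in both WT libraries and below them in both cKO libraries. Of these genes Zfp91 (log2 fold change 0.25, edgeR adjusted p = 0.0324) was called higher and Zfp703 lower. Zfp106 missed the threshold (0.20, SE 0.06, edgeR adjusted p = 0.0527), as did Zfp207 (-0.14, SE 0.07) and Zfp384 (0.03, SE 0.06). The 95% intervals were 0.20 ± 0.15, -0.14 ± 0.18 and 0.03 ± 0.15.

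The first comparison asked how the level of Zfp mRNA differed between the MSC cultures of both genotypes. Macrophage markers were abundant in these cultures, so the values are those of the whole culture and not of stromal cells alone. Zfp mRNA was higher in cKO across most of the group. The summed level of the 182 genes was 4459 and 4444 CPM in the WT libraries and 5064 and 5031 CPM in the cKO libraries. In edgeR's quasi-likelihood fit, with p-values adjusted over 15327 genes by Benjamini-Hochberg, 57 Zfp genes (31.3%) were higher and 8 (4.40%) lower in cKO at the 0.05 level. Across all genes in the fit 13.7% were called higher and 16.8% lower, and over the 9962 other coding genes of at least 200 counts 16.6% and 18.3%. The rises were small: 4 exceeded 2-fold, 11 lay between 1.5-fold and 2-fold, and 42 lay under 1.5-fold. Including the genes that were not called, 152 of 182 had a log2 fold change above 0 (83.5%, against 49.4% of all genes tested). Their median was 0.24 with quartiles of 0.08 and 0.36, while the median over all genes tested was -0.0038.

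**Figure D1:**
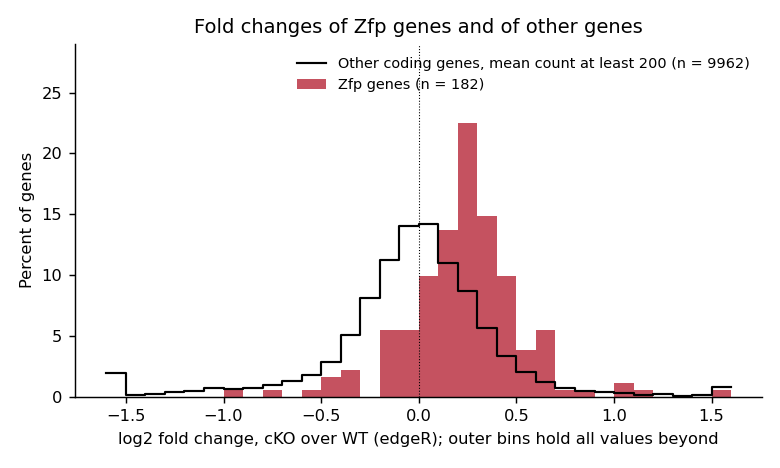
Distribution of edgeR log2 fold changes (cKO over WT, bins of 0.1) as a percentage of genes, for the 182 Zfp genes (red bars) and the 9962 other coding genes with a mean of at least 200 counts (black line). The Zfp median is 0.24 and that of the other genes -0.0027.

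The shift was present in every pairing of libraries. The median log2 ratio of a cKO to a WT library over the 182 genes was 0.23, 0.25, 0.22 and 0.26 in the 4 possible pairs, and between 79.1% and 84.1% of the genes were higher in the cKO library of a pair. Between libraries of the same genotype the medians were 0.0044 (WT) and 0.010 (cKO). Both cKO libraries lay above both WT libraries for 131 Zfp genes (71.98%) and below both for 18 (9.89%), where all genes tested gave 33.9% and 35.0%. All 57 genes called higher and all 8 called lower were among them. Differences between libraries of a genotype, as a chi-square ratio to counting error, were 32.6 in WT and 1.82 in cKO. The count of calls, unlike the direction, changed with the group from which a library was left out. Without WT replicate 1 it was 103 higher and 14 lower, without WT replicate 2 it was 96 and 11, without cKO replicate 1 it was 9 and 2, and without cKO replicate 2 it was 12 and 2. The share of all genes called higher moved in step, from 4.58% to 27.1%, and between 149 and 155 Zfp genes stayed above 0 in each case. DESeq2 called 35 Zfp genes higher and 6 lower, beside 10.3% of all its genes called higher (1666 higher, 1976 lower). In limma on log2(TPM + 0.1) the calls were 34 and 3, beside 11.6% of all genes called higher. There the balance over all genes also leaned upward, with 1779 higher and 1442 lower.

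Length and methylation of the transcript moved with the fold change among other genes too, so the Zfp genes were set beside others of like make-up. These comparisons, chosen after the values were seen, are descriptions with no test. Other coding genes weighted to the mean counts of the Zfp genes had a median log2 fold change of -0.02. Weighting by mean count and transcript length gave 0.02, by mean count and TPM 0.02, by mean count and number of m6A peaks 0.04, and by mean count and length of the last exon 0.05. The closest was the weighting by last exon length and number of peaks together, with a median of 0.09, 62.1% of genes above 0, and 25.1% called higher against 14.0% lower. For the 180 Zfp genes with a gene model in the annotation used for peaks, the corresponding values were 0.24, 83.9%, 31.7% and 4.44%.

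The largest rise was that of Zfp462, a nuclear protein with 33 fingers that is known for keeping heterochromatin on lineage genes in embryonic stem cells (GRCm38 chromosome 4, 54945048 to 55083563). It stood at 8.93 and 7.005 CPM in WT and 25.2 and 24.4 CPM in cKO, a log2 fold change of 1.63 (SE 0.13, edgeR adjusted p = 0.000371). Zfp365, known as a partner of the neuronal scaffold DISC1, went from 13.4 and 10.5 CPM to 27.0 and 25.3 CPM (1.13, SE 0.13, edgeR adjusted p = 0.00162). For both genes each cKO library held more than both WT libraries by a wide margin, and both were called under all 11 alternatives tried.

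Zfp532 and Zfp592 encode proteins that assemble with the chromatin reader Zmynd8. Zfp532 rose from 7.13 and 6.58 CPM to 15.1 and 14.2 CPM (1.09, SE 0.11, edgeR adjusted p = 0.00103), and Zfp592 from 44.0 and 46.5 CPM to 70.1 and 73.6 CPM (0.67, SE 0.07, edgeR adjusted p = 0.000967). In limma on log2(TPM + 0.1) the calls of Zfp532 and Zfp592 were lost, at adjusted p-values of 0.0975 and 0.128. Zfp687, the remaining zinc finger member of that complex, is named here after its values were seen. It was also called higher, at 24.1 and 22.3 CPM in WT and 29.96 and 27.5 CPM in cKO, by a smaller step (0.31, SE 0.09, edgeR adjusted p = 0.0454), and some of its exons overlap Pi4kb on the opposite strand. Zfp608 and Zfp609 are paralogs, of which Zfp609 binds the cohesin loader Nipbl and the Integrator complex. Zfp608 rose from 8.96 and 8.03 CPM to 17.0 and 17.2 CPM (1.01, SE 0.11, edgeR adjusted p = 0.00113) and Zfp609 from 38.6 and 37.4 CPM to 51.8 and 53.7 CPM (0.47, SE 0.07, edgeR adjusted p = 0.00362).

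Of the other large rises, Zfp704, first described as a glucocorticoid-induced gene, was the least even. It stood at 28.8 and 15.4 CPM in WT and 40.5 and 41.5 CPM in cKO (0.88, SE 0.25, edgeR adjusted p = 0.0424), and its call was lost under 6 of its 11 alternatives: in DESeq2, in limma at both offsets, without either cKO library and with the cKO libraries summed (adjusted p from 0.0547 to 0.134). The size rested on the WT pair, with a log2 fold change of 1.42 without WT replicate 1 and 0.51 without WT replicate 2. The KRAB gene Zfp334 went from 5.77 and 6.30 CPM to 11.1 and 9.32 CPM (0.76, SE 0.14, edgeR adjusted p = 0.0103). Zfp597 went from 8.25 and 9.76 CPM to 15.1 and 13.4 CPM (0.67, SE 0.13, edgeR adjusted p = 0.0117). It shares exon positions with Naa60 on the opposite strand, and the library kit did not mark strand, so reads of both genes cannot be told apart there.

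**Figure D2:**
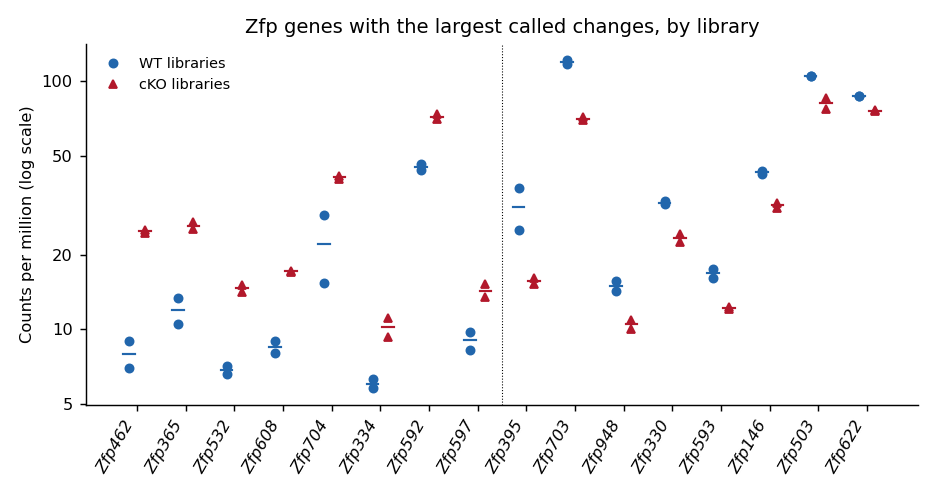
CPM on a log axis in each WT library (blue circles) and cKO library (red triangles) for the 8 largest called rises (left of the dotted line) and the 8 called falls (right), with a bar at each group mean of 2 libraries. In all 16 genes the WT and cKO libraries do not overlap, and Zfp704 and Zfp395 show the widest WT pairs.

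The 8 genes called lower mostly encoded few fingers. Only Zfp948 had a KRAB and only Zfp948 and Zfp146 had 5 or more fingers, while 6 of the 8 had fewer than 5. Zfp395, which binds the promoter of the huntingtin gene and lacks a classical finger row, fell from 37.0 and 25.1 CPM to 15.1 and 16.1 CPM (-0.995, SE 0.18, edgeR adjusted p = 0.00936). Zfp703 and its paralog Zfp503 are corepressors of the NET family, which have one divergent zinc finger that the C2H2 pattern does not find. Zfp703 fell from 117.7 and 121.4 CPM to 69.6 and 71.8 CPM (-0.76, SE 0.06, edgeR adjusted p = 0.000345), and Zfp503 from 105.2 and 105.4 CPM to 77.3 and 85.5 CPM (-0.37, SE 0.07, edgeR adjusted p = 0.0102). In both genes the groups stand clear of each other, with the cKO pair of Zfp503 the less even. The call of Zfp703 held under all 11 alternatives, and that of Zfp503 was lost under 5 of 11.

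By background knowledge Zfp330 is a nucleolar protein, and Zfp593 and Zfp622 are the counterparts of yeast factors that export and mature the large ribosomal subunit. Zfp330 fell from 32.0 and 32.8 CPM to 22.5 and 24.3 CPM (-0.47, SE 0.08, edgeR adjusted p = 0.00767). Zfp593 fell from 17.5 and 16.1 CPM to 12.3 and 12.1 CPM (-0.46, SE 0.10, edgeR adjusted p = 0.0159), a call lost under 6 of its 11 alternatives, with adjusted p-values from 0.0518 to 0.161. Zfp622 fell from 87.5 and 87.2 CPM to 76.3 and 75.9 CPM (-0.20, SE 0.06, edgeR adjusted p = 0.0423), a call lost under 8 of its 11 alternatives. Zfp146, a protein made almost wholly of fingers, fell from 42.3 and 43.5 CPM to 32.4 and 30.8 CPM (-0.44, SE 0.07), and Zfp948 from 14.2 and 15.6 CPM to 10.9 and 10.0 CPM (-0.51, SE 0.11), with edgeR adjusted p-values of 0.00609 and 0.0152.

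Of 9 Zfp genes listed as regulators of bone, fat and stem cell lineages, 8 were expressed at 200 counts or more, 2 of those were called higher and 2 lower, beside 16.6% and 18.3% of the other coding genes at that level, and the median log2 fold change of all 9 was 0.06. Zfp521, which restrains Runx2 and is active in immature osteoblasts and chondrocytes, rose from 15.5 and 17.0 CPM to 23.4 and 25.04 CPM (0.58, SE 0.09, edgeR adjusted p = 0.00615). Zfp467, which favours fat over bone in marrow stroma and is repressed by parathyroid hormone, rose from 9.23 and 11.2 CPM to 14.4 and 15.3 CPM (0.54, SE 0.13, edgeR adjusted p = 0.0218). Zfp703 and Zfp503 are the falls already given. The preadipocyte determinant Zfp423 sat at the edge of the selection with 6.12 and 7.29 CPM in WT and 6.64 and 7.31 CPM in cKO, groups that overlap (0.06, 95% interval ± 0.36). Zfp217 had 57.8 and 59.4 CPM in WT and 66.6 and 64.6 CPM in cKO (0.16, edgeR adjusted p = 0.0946). Zfp516, an activator of brown fat genes, had 95.01 and 74.9 CPM in WT and 72.8 and 76.4 CPM in cKO (-0.19, edgeR adjusted p = 0.26), and Zfp64 had 19.8, 20.7, 19.3 and 20.2 CPM, with no separation of the groups. Zfp30, a KRAB gene linked to adipogenesis, fell short of the selection with a mean count of 133 and stood at 2.07 and 2.58 CPM in WT and 6.23 and 7.47 CPM in cKO (1.57, SE 0.20, edgeR adjusted p = 0.00228).

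The proteins fell into classes by their translated sequence. KRAB zinc finger genes were the most numerous (72 of 180), with a median of 12 fingers and a median of 5.98 TPM, and their highest members per length were Zfp87 (29.5 TPM, with exons that overlap Zfp58) and Zfp715 (20.1 TPM). Of the 72, 21 were called higher and 1 lower, with a median log2 fold change of 0.28. Another 68 genes had 5 or more fingers without KRAB or SCAN, a dimerisation domain of zinc finger proteins. Among them 23 were called higher and 1 lower, with a median of 0.24. In the 36 genes with fewer than 5 fingers the split was 12 higher and 6 lower, with a median of 0.17 and 25 of 36 above 0. A gene with both KRAB and SCAN was counted under KRAB. Just 4 other genes had a SCAN domain, led by Zfp444 (25.2 TPM) and Zfp263 (21.6 TPM), and 1 of them was called higher. Among other coding genes of at least 200 counts 16.6% were called higher and 18.3% lower. These shares were not tested against each other. Zfp genes also lie in clusters: chromosome 7 held 44 of the 182, with 13 called higher, 1 lower and 40 above 0, and chromosome 17 held 19, with 3 higher, 1 lower and 16 above 0. The rises called on chromosome 17 were thus near the 16.6% of other coding genes.

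Zfp genes share sequence with each other, which can move reads between copies. Of the 50-base windows in their finger regions 2.76% were found in another coding gene, against 1.58% elsewhere in their transcripts, and 109 genes had no such window. More than 10% was shared in 10 genes, of which 2 were called higher (Zfp764 and Zfp866), and 14 genes had exons that overlap an expressed gene, of which 7 were called higher. Leaving out both sets left 161 genes, with 49 higher and 8 lower, beside 16.6% and 18.3% of other coding genes of at least 200 counts.

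The corepressor genes through which KRAB proteins act held calls in both directions. Of 22, 3 (13.6%) were called higher and 3 (13.6%) lower, close to the 13.7% and 16.8% of all genes tested, 11 were above 0, and the median log2 fold change was -0.01. Among the most abundant per length were Sumo2 (266.9 TPM) and Chd3 (167.0 TPM), a helicase of the NuRD complex. Chd3 was called higher (197.4 and 252.9 CPM in WT, 289.7 and 303.0 CPM in cKO, log2 fold change 0.40, edgeR adjusted p = 0.0441). Sumo2 (-0.07, SE 0.09) did not pass. Trim28 itself had 145.6 and 170.7 CPM in WT and 143.0 and 150.4 CPM in cKO (-0.11, edgeR adjusted p = 0.399), groups that overlap. The other rises were the Setdb1 partner Atf7ip (0.43) and Fam208a, a subunit of the HUSH silencing complex (0.38), and the falls were the DNA methylation cofactor Uhrf1 (-1.03), the deacetylase Hdac1 (-0.35) and the heterochromatin protein Cbx3 (-0.27). A list of 8 Zfp genes that act on retroelements and imprinted loci had 7 in the table, of which 6 were tested, 2 were called higher (Zfp57 and Zfp809, both under 200 counts) and none lower. Beside them stand the same 13.7% and 16.8% of all genes tested, and 6 genes are too few for a comparison.

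The second question was where m6A lies on these transcripts. MeRIP-seq recovers RNA fragments with an antibody against m6A and compares them with input RNA. The authors deposited 1 peak list for all 4 samples, so no replicate error can be given, the depth behind the peaks is unknown, and each comparison of peaks is a description with no test. Intervals cover counting error over genes or peaks only. Peaks were placed by their summit on mm9 gene models, which were found for 180 of the 182 genes; Zfp131 and Zfp433 had none.

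Of the 180 genes, 124 (68.9%, 95% Wilson interval 61.8% to 75.2%) carried at least 1 peak and 56 carried none. Together they held 261 peaks, or 1.45 per gene (Poisson interval 1.28 to 1.64). Among 9883 other coding genes weighted to the same mean counts, 43.4% had a peak, with 0.638 peaks per gene. The share rose with expression in both sets. In the bin of lowest count it was 47.2% against 36.0% of other genes in the same range, and in the second 58.3% (42.2% to 72.9%) against 39.6% (36.5% to 42.9%), and in both the intervals overlapped. In the upper bins it was 69.4% against 42.5%, 86.1% against 45.7% and 83.3% against 53.2%, with intervals apart. The distance was smaller beside other genes of like structure: weighted by count and last exon length 53.3% had a peak, by count and longest exon 54.0%, and by TPM 51.2%. Zfp genes had fewer exons (median 5 against 10) and a longer last exon (median 2492 against 1210 bases) than other genes.

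**Figure D3:**
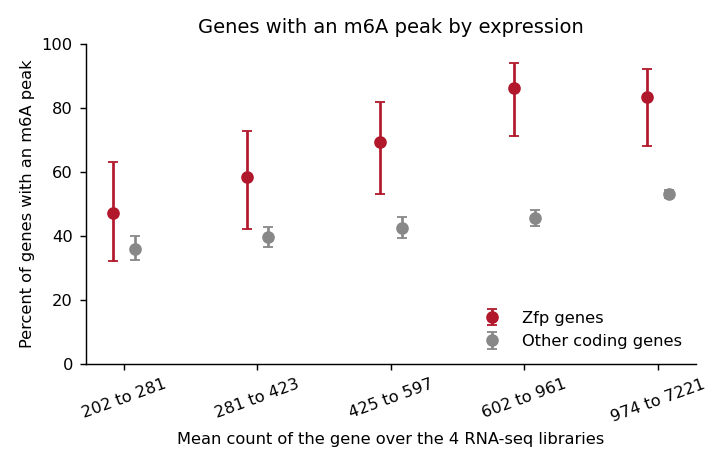
Percentage of genes with at least 1 m6A peak (95% Wilson intervals) in 5 bins of mean RNA-seq count, each with 36 Zfp genes (red), beside other coding genes of the same count (grey). Zfp genes rise from 47.2% to 83.3% and other genes from 36.0% to 53.2%, and the intervals overlap in the lowest 2 bins.

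The most peaks were found on Zfp516, with 7, of which 5 lay in coding sequence (CDS), 1 in the 5′UTR and 1 just past the stop codon. Zfp318, a regulator of IgD expression in B cells, Zfp609 and Zfp646 had 6 peaks each, and Zfp12, Zfp608 and Zfp652 had 5. All 6 peaks of Zfp318 and all 5 of Zfp608 were in CDS, spread over several exons, while 5 of the 6 peaks of Zfp646 lay in its long second exon of 3. Some exons of Zfp646 overlap Zfp668 on the opposite strand. Of the 5 peaks of Zfp652, 3 were in distal 3′UTR sequence of a longer transcript model, and some exons of Zfp652 overlap Abi3 and Phospho1. A summit in exons of more than 1 gene was given to the gene with more counts. Whether these 3 summits were shared with a neighbour is not given here. Another 7 genes had 4 peaks each, and of these Zfp697, with 2 of its 4 intronic, had the highest summed enrichment. The strongest of all 261 enrichments, named after it was seen, was on Zfp64, 16.7-fold with 23 fragments at the summit, in coding sequence of a transcript model other than its representative one. The 3 genes with 6 peaks and the 3 with 5, Zfp652 with its 3 distal peaks included, were all called higher in cKO, as were 2 of the 7 with 4. Of other coding genes with 3 or more peaks 38.8% were called higher. The call of Zfp12 was lost under 7 of 11 alternatives, that of Zfp318 under 5 and that of Zfp646 under 3. Zfp652, a repressor that works with the corepressor Cbfa2t3, went from 66.4 and 64.0 CPM to 99.5 and 98.8 CPM (0.61, SE 0.06, edgeR adjusted p = 0.000874). Zfp516 and Zfp697 (0.41, SE 0.14, edgeR adjusted p = 0.0699) did not pass.

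Peaks on Zfp transcripts lay further inside the coding sequence than those of other genes. Summits fell in CDS for 203 of 261 peaks (77.8%, 72.4% to 82.4%) and in the 3′UTR for 45 (17.2%), against 61.5% and 27.4% in other genes. Of the summits on the representative transcript of each gene, 80.6% of 248 in Zfp genes and 66.3% of 7102 in other genes were in CDS, where spreading them evenly along the same transcripts would have put 56.6% and 55.6%. Within 200 nt of the end of the CDS were 19.0% of Zfp summits and 30.9% of others, where even spread gives 9.69% and 11.5%. Relative to the CDS end the median summit position was -775.5 nt in Zfp genes and -312.5 nt in other genes. The last exon held 71.0% of Zfp summits and 61.2% of others, with 67.6% and 50.3% under even spread, and runs of fingers held 21.0% of Zfp summits, where even spread gives 18.5%.

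Along the 154 genes with a run of at least 2 adjacent fingers, peaks were denser in coding sequence than in either UTR. There were 0.790 summits per kb after the fingers (0.544 to 1.11), 0.470 before them (0.352 to 0.615), 0.472 from the first to the last run of fingers (0.374 to 0.588), 0.154 in the 3′UTR (0.109 to 0.213) and 0.120 in the 5′UTR (0.0390 to 0.280). The 3 intervals within coding sequence overlap. In KRAB genes the position differed by exon: all 17 summits before the fingers were in the last exon, at 0.556 per kb (0.324 to 0.890), and none in the 22.2 kb of earlier coding exons, which allows up to 0.166 per kb. In the 82 genes without KRAB the earlier exons held 21 summits, at 0.465 per kb (0.288 to 0.710). KRAB genes had a peak in 55.6% of cases (40 of 72) and genes with 5 or more fingers and no KRAB in 82.4% (56 of 68), but their mean counts differed too, with medians of 306 and 691.

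**Figure D4:**
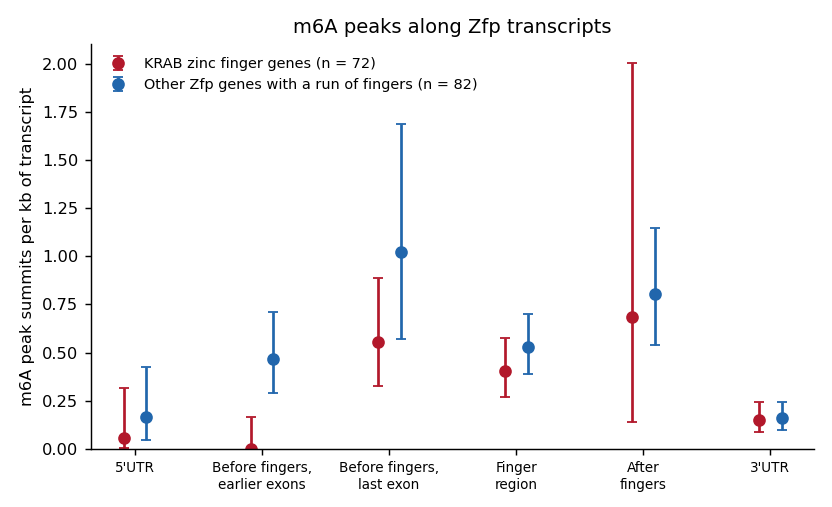
m6A peak summits per kb of transcript (95% Poisson intervals for counting error) in 6 segments of the transcripts of 72 KRAB genes (red) and 82 other Zfp genes with a run of fingers (blue). KRAB genes have none in coding exons before the last one, and in both sets the 3′UTR lies at 0.150 to 0.158 per kb.

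Sequences under the finger peaks are shown for context. For the 6 genes with the highest enrichment of a summit inside a run of fingers, 30 bases are given around the GGAC nearest the summit within the peak, in capitals. In 2 of them the peak held no GGAC, and the nearest of GAAC, AGAC or AAAC is in capitals instead. All are 5′ to 3′ on the transcript strand, read from mm9.
Zfp697: tcagctggcgctcGGACctggtgaagcacc
Zfp182: attgtccattggaGAACtcatacaggagag
Zfp715: tcacacaggggagAGACcttataaatgcag
Zfp316: tcggccacagctcGGACttcaagcgacacc
Zfp738: ctttctaaacacaGGACaattcatacagga
Zfp398: agcagacgctcaaGGACcacctacggaccg

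These stretches lie at chr3:98232084-98232113 on the plus strand (Zfp697), chrX:20608294-20608323 on the minus strand (Zfp182), chr7:50553488-50553517 on the minus strand (Zfp715), chr5:144015343-144015372 on the minus strand (Zfp316), chr13:67771455-67771484 on the minus strand (Zfp738) and chr6:47816753-47816782 on the plus strand (Zfp398). Each is coding sequence of the last exon. The peaks were enriched 10.4-fold, 9.63-fold, 8.13-fold, 7.36-fold, 7.23-fold and 6.66-fold in that order by the authors' peak caller, and pileups of 11 to 46 fragments stood at the summits. The motif lay 6 to 25 bases from the summit in 5 of the genes and 89 bases away in Zfp398, so the match is a description and not a mapped site. Zfp316 and Zfp398, KRAB genes both, were called higher in cKO (0.64 and 0.65, edgeR adjusted p = 0.00724 and 0.00455), and the remaining 4 did not pass. For Zfp738, 30.04% of its 50-base windows also occur in another coding gene.

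GGAC occurred within 50 bases to either side of the summit in 56.5% of Zfp summits (50.2% to 62.5%) and in 31.3% of all windows of that width in the same transcripts. For other genes the values were 62.7% and 36.4%. Inside the fingers themselves the motif was uncommon and repeated with the protein. Over 1779 fingers of 173 genes GGAC occurred 310 times, and 64 of these (20.6%) began at the same place, the base numbered 8 when the histidine codon that first binds zinc starts at 1. Only 32 of the 310 were within 50 nt of a summit, 7 of them at that place.

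The third comparison joins both experiments: the fold change by the number of peaks. The median log2 fold change of Zfp genes with a peak in WT cultures was 0.28, and 51 of 124 (41.1%) were called higher and 5 (4.03%) lower. Zfp genes without one had a median of 0.15, and 6 of 56 (10.7%) were called higher and 3 (5.36%) lower. For 0, 1, 2 and 3 or more peaks the medians were 0.15, 0.28, 0.22 and 0.33, lowest without a peak and without a steady order above it. The shares called higher were 10.7%, 37.5%, 39.0% and 48.6%, rising at each step. In other coding genes both measures rose at each step, at lower values, with medians of -0.07, 0.03, 0.12 and 0.21 and 9.79%, 18.6%, 28.7% and 38.8% called higher. At each number of peaks the Zfp median was above that of other genes, by most at 1 peak and by least at 2. Genes with more peaks also had more counts. Weighted to the counts of the Zfp genes with and without a peak, other genes had 19.5% and 9.64% called higher. The weighted means of their medians per bin of mean count were 0.06 and -0.09.

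**Figure D5:**
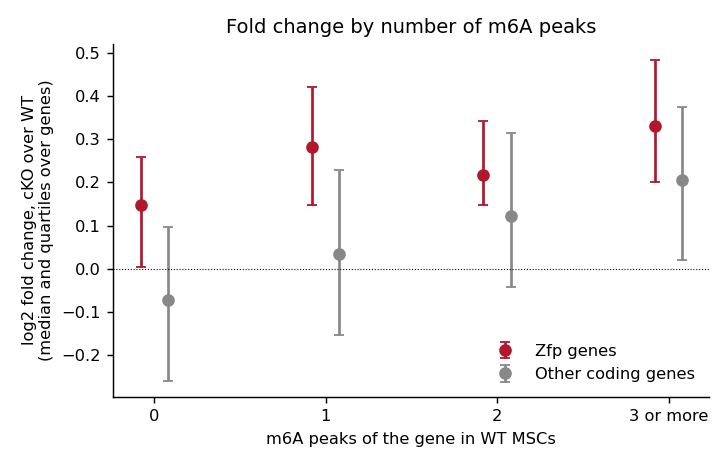
Median log2 fold change (cKO over WT) with quartiles over genes, for Zfp genes (red) and other coding genes (grey) with 0, 1, 2 or 3 or more m6A peaks in WT MSC cultures. Zfp medians are 0.15, 0.28, 0.22 and 0.33 and those of other genes -0.07, 0.03, 0.12 and 0.21, with wide overlap of the quartiles.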

How the data were processed

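RNA-seq reads of 4 libraries were mapped by the authors with HISAT2 2.0.4 and tested with Ballgown, and the submitters' processing notes list TopHat and MACS2 and the builds mm10 and mm9. Gene-level estimated counts, not normalised, were deposited with a second value headed FPKM, which the authors had rescaled so that each library sums to 1000000 and which is therefore treated as TPM. How reads were counted is not given in the sources used here, and the kit is unstranded. For 10160 MeRIP-seq peaks the deposited list, in MACS2 layout, gives from the authors' peak caller a pileup signal, an enrichment ratio over local background and the −log10 q-value. Whether the 4 samples were pooled is not given.

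Entries without a gene name (89, 0.110% to 0.125% of counts) were left out. Rounded counts passed filterByExpr and TMM scaling before a two-sided test in edgeR 4.0.16 with no block. Printed CPM are scaled by TMM. Same-numbered libraries did not deviate together (r = 0.032 over genes), which gave no reason to pair them. The cKO libraries differed little beyond counting error (chi-square ratio 1.82), so this check could hardly have shown a pairing. Alternatives used limma 3.58.1 and DESeq2 1.42.0.

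Peaks were placed on mm9 and GENCODE vM1, and deposited gene positions are GRCm38. Fingers, KRAB and SCAN were found in translated vM1 coding sequence, since no protein table was given. A finger is a C2H2 pattern, and a run has at least 2 fingers with at most 12 residues between them. Other coding genes were weighted to the Zfp genes within bins of the Zfp genes' quantiles, usually 5 of mean count. Genes were named by rule: the 8 largest called rises and falls, the 5 highest by TPM, the 8 with most peaks, the lineage list, the edge of the selection, the called and 3 highest corepressor genes and the 2 highest of each class. A corepressor gene that this rule names is not reported here. The members and lists were chosen with earlier results of these data known.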

Additional observations from a re-analysis of the deposited data

How the results depend on the processing

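With the replicate number as a block, which the check of deviations did not call for, 58 Zfp genes were higher and 7 lower (65 in all), with a median log2 fold change of 0.24. The 57 called higher kept a positive and the 8 called lower a negative log2 fold change under every alternative. This was nearly fixed in advance, since the WT and cKO libraries of all these genes do not overlap and every alternative used the same libraries. Counts of calls moved: DESeq2 gave 41 calls (35 higher), limma on log2(TPM + 0.1) 37 (34 higher, 3 lower), limma on log2(TPM + 1) 36 (33 higher, 3 lower), and the cKO libraries summed to 1 sample, a setting chosen after seeing the data, 13 (11 higher, 2 lower). Leaving out each library in turn gave 11 to 117 calls, 9 to 103 higher and 2 to 14 lower, with medians of 0.23 to 0.25; the left-out arm then has 1 sample, which is assumed to vary like the other group. There were 37 calls at a mean of at least 500 counts, 17 at an adjusted p under 0.01, and 4 by an unadjusted p under 0.05 with at least 2-fold. On TPM the median was 0.33 (+ 0.1) and 0.30 (+ 1), where the median of all genes also moved, to 0.097 and 0.078. The share of all genes called higher was 10.3% in DESeq2 and 11.6% in limma at both offsets.

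Peaks at or above the median q left 43.9% of Zfp genes with a peak and 0.733 peaks per gene. At a mean of at least 100 counts there were 1.28 peaks per gene, and at 500 counts 1.956, with 82.4% of genes. The distance to other genes, 25.5 percentage points, became 34.7 at 500 counts, 17.7 in TPM bins, 15.6 with last exon length and 14.9 with longest exon (the last pair added after seeing the data). Counting each gene once put 79.7% of Zfp peaks in the last exon and 28.0% in finger runs.

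Of 27 called genes named by rule, 6 (Zfp365, Zfp398, Zfp462, Zfp608, Zfp652 and Zfp703) were called under all 11 alternatives, and 21 lost the call in 77 of 297 comparisons. Zfp622 lost it in 8, Zfp12 in 7, Zfp593 and Zfp704 in 6, Zfp318, Zfp503, Zfp606 and Zfp948 in 5, and Zfp146, Zfp316, Zfp330, Zfp467, Zfp646 and Zfp91 in 3. Zfp334, Zfp395, Zfp532, Zfp592 and Zfp597 lost it in 2, and Zfp521 and Zfp609 in 1. By setting, 16 were lost without cKO replicate 1, 15 without cKO replicate 2, 14 with cKO summed, 13 and 11 in limma (+ 0.1 and + 1), 5 in DESeq2, 2 with the block (Zfp12 and Zfp622), 1 without the filter and none without a WT library. Fold changes of named genes reversed only where they were not called, which the separation of the groups in called genes nearly fixes. Leaving out each library in turn gave -0.0185 to 0.187 for Zfp263, -0.0491 to 0.193 (and -0.0073 without cKO replicate 2) for Zfp423, -0.349 to 0.0044 for Zfp516, -0.149 to 0.196 for Zfp53, -0.0633 to 0.0021 for Zfp64 and -0.0472 to 0.0499 for Zfp677 (0.0424 without cKO replicate 1). In limma on log2(TPM + 0.1) and log2(TPM + 1) Zfp64 was at 0.0929 and 0.0869, Zfp677 at 0.0908 and 0.0722 and Zfp87 at -0.063 and -0.0609. Zfp677 was also at 0.0020 with median-of-ratios size factors, 0.00090 without the filter, 0.0015 in DESeq2 and 0.0077 with cKO summed. Peaks from 1 list for all samples carry no replicate error, and with 2 libraries against 2 an exact permutation test of 1 gene cannot go below p = 0.333.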

Other observations

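Zinc finger genes of other name families were also called higher more often than lower. Of 43 Zbtb, Zscan and Zkscan genes with a mean of at least 200 counts, 17 (39.5%) were called higher in cKO and 2 (4.65%) lower, beside 16.6% and 18.3% of the coding genes at that level outside the Zfp names, 35 were above 0, and the median log2 fold change was 0.28. The 32 Zbtb genes, in which a BTB dimerisation domain precedes the fingers, gave 13 higher and 2 lower, and the 11 Zscan and Zkscan genes 4 higher and none lower. The largest rise was that of Zbtb20, a repressor known from liver and cartilage, from 94.9 and 87.8 CPM to 144.2 and 143.6 CPM (0.65, SE 0.06, edgeR adjusted p = 0.000878). The falls were Zbtb10, from 23.8 and 17.8 CPM to 10.6 and 10.2 CPM (-0.999, SE 0.15), and Zbtb11, from 34.5 and 32.7 CPM to 25.3 and 25.8 CPM (-0.40, SE 0.08), with edgeR adjusted p-values of 0.00489 and 0.0117. Peaks were present on 37 of the 43.

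The Zfp genes below the selection were mostly above 0 as well. Of the 153 genes, 126 passed the filter on low counts, 17 of those (13.5%) were called higher and 2 (1.59%) lower, beside 13.7% and 16.8% of all genes tested, 110 were above 0, and the median was 0.33. They held 60 peaks on 48 genes. Genes just past the filter through one group alone would have had to differ, so these counts are given as values and support nothing.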
